A study of Mus musculus with 67 samples.

Results

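Organoids grown in ENR medium with VPA and EPZ6438 added (ENR +VE, 3 libraries) were compared with organoids grown in ENR medium alone (ENR, 3 libraries with the same replicate numbers, 1 to 3), 6 of the 67 libraries of the study. The members were taken from the condition and the repeat number in the labels, and no measured value was used to choose them. Organoids were grown in Matrigel from crypts of the proximal small intestine of mice. Genotype, strain, age and sex of the mice are not given in the labels of these libraries. In both groups the medium held noggin at 100 ng/mL, R-Spondin 1 at 500 ng/mL and EGF at 50 ng/mL. VPA and EPZ6438 are given as one addition, so that no library here holds VPA alone or EPZ6438 alone in ENR. The sources used here do not state their doses in ENR, the time of exposure or a vehicle in the controls. The 8C medium of the same study, used below for comparison, holds 500 µM VPA and 2 µM EPZ6438. The series has 7 ENR libraries, and the other 4, replicates 4 to 7, served as a further set of controls. The epithelial markers Epcam and Vil1 were high in every library, at 1460.5 to 1526 TPM and 557 to 648 TPM in ENR +VE and 1413 to 1417 TPM and 595 to 696 TPM in ENR.

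VPA is a short-chain fatty acid that inhibits class I histone deacetylases, the enzymes that remove acetyl groups from histone tails. EPZ6438, or tazemetostat, blocks the methyltransferase EZH2, the catalytic subunit of polycomb repressive complex 2 (PRC2), which places the H3K27me3 mark on silent developmental genes. ENR is the standard medium of small intestinal organoids: EGF drives proliferation, noggin blocks BMP signalling and R-Spondin 1 raises Wnt signalling, and the organoids hold stem cells, Paneth cells, goblet cells, enteroendocrine cells and enterocytes. In bulk RNA, fewer cells of a type and less RNA per cell of that type cannot be told apart.

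Values are TPM, a share of transcripts scaled to a fixed total in each library, and changes are log2 fold changes on log2(TPM + 1), ENR +VE over ENR, with the standard error (SE), so that the change of a gene near 0 TPM is understated. A call needed an adjusted p below 0.05 (limma, Benjamini-Hochberg over all genes tested) and a 2-fold change or more. Nothing in the labels says that libraries with different repeat numbers came from separate mice or cultures, and the p-values measure the spread between these libraries. Sex-linked transcripts, given at the end, went with the repeat number in both groups and differed between replicates 2 and 3. The fit did not use this pairing, and with the number as a block 1380 genes were called. The 6 libraries listed between 11879 and 12742 genes at 1 TPM or more, with 12467 to 12742 in ENR +VE and 11879 to 12001 in ENR. The summed level of mitochondrial genes was 1.99%, 2.71% and 1.78% of a library in ENR +VE and 3.05%, 3.81% and 2.58% in ENR (replicates 1, 2 and 3), lower in ENR +VE at each number, and with these genes removed 1380 genes were called in place of 1368, an alternative chosen after seeing the data. Spearman correlations were 0.983 to 0.995 within ENR +VE, 0.99 to 0.996 within ENR and 0.923 to 0.957 between the groups. The depth of the libraries is unknown, because TPM keeps no number of reads.

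Of 12468 genes tested, 1129 (9.06%) were higher and 239 (1.92%) were lower in ENR +VE, so that 82.53% of the called genes rose. Under quantile normalization 832 were higher and 466 were lower, and the share of rises fell to 64.1%. The number lower was 112 against ENR replicates 4 to 7 and 91 against all 7 ENR libraries. The median change over all genes tested was 0.011 as deposited, −0.067 under quantile normalization and 0.19 against ENR replicates 4 to 7. All 1368 called genes had libraries that did not overlap between the groups, against 50.5% of all genes tested, and 5746 genes had an unadjusted p under 0.05. The split between rises and falls is listed by the level in ENR. Among the 1938 genes with an ENR mean of 1 to 5 TPM, 346 were higher and 48 were lower. The minimum of 1 TPM applied to the mean of both groups, so genes just above 1 TPM in ENR had little room to be called lower. The split at 1 to 5 TPM is therefore partly set by the filter. Among the 4663 genes with an ENR mean of 20 to 100 TPM, 80 were higher and 76 were lower. Among the 2039 genes at 100 TPM or more, 13 were higher and 46 were lower, the reverse of the split over all genes. The 688 genes tested with an ENR mean under 1 TPM, of which 523 were called higher, passed the minimum of 1 TPM only through the treated libraries and had to be higher, so that nothing is read from their number. The other 606 rises had an ENR mean of 1 TPM or more. Because the 9.06% includes the 523, it is above the share of rises among genes at 1 TPM or more. It is not a like measure for the counts at that level given below.

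**Figure D1:**
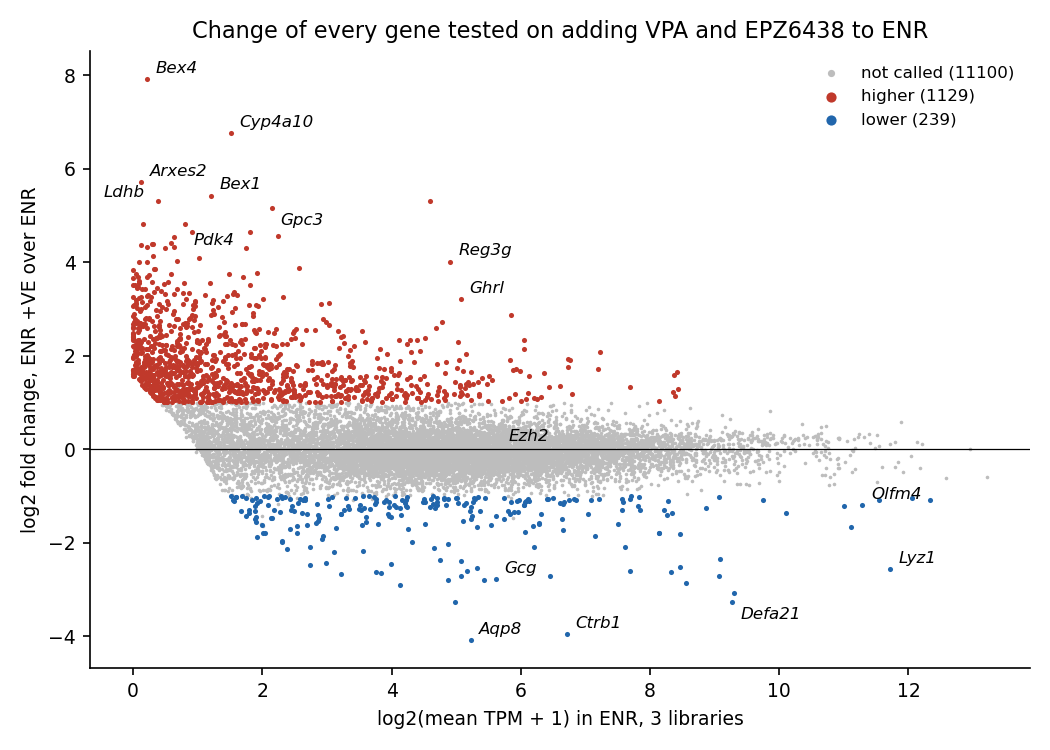
Change of each of the 12468 genes tested (y axis, log2 fold change of ENR +VE over ENR, 3 libraries each) against its mean level in ENR (x axis, log2(mean TPM + 1)), with called genes in red (1129 higher) and blue (239 lower). The red points crowd at the low end of the x axis, where genes with an ENR mean under 1 TPM had to be higher to be tested. Lyz1 and Olfm4 are blue points near its high end.

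The RNA of the genes that encode the targets of the compounds was first examined. Ezh2 was read at 55.3, 55.2 and 46 TPM in ENR +VE and 48.4, 50.5 and 51.8 TPM in ENR, with overlapping libraries and a change of 0.049 ± 0.10 (SE, limma adjusted p = 0.707). The other core PRC2 subunits did not pass the 2-fold minimum either: Eed, which reads H3K27me3, changed by −0.30 ± 0.073, and Suz12 changed by −0.27 ± 0.16 (SE). Hdac1, a class I deacetylase, was read at 183, 187 and 165 TPM against 121, 122 and 132 TPM, a change of 0.51 ± 0.077 (SE, limma adjusted p = 0.00157) that was below 2-fold. The changes of the class I members Hdac2, Hdac3 and Hdac8 were 0.17, 0.30 and 0.50, and none of the 15 deacetylase genes tested was called. Of 16 PRC2 genes tested 1 was called, Epop, a partner of PRC2, which rose by 1.03 ± 0.10 (SE) and was not called without ENR replicate 3, beside 9.06% of all genes higher. Of 21 PRC1 genes tested 2 were called higher. All 21 had an ENR mean of 1 TPM or more, a level at which the share of all genes is below the 9.06% described above. Bmi1, a ring finger partner in PRC1, was read at 62.8 to 88.4 TPM in ENR +VE and 31.8 to 33.8 TPM in ENR. The other was Phc1, a polyhomeotic subunit, at 1.05 ± 0.13 (SE), which was not called without ENR +VE replicate 2. The PRC1 count was 1 without that library and 3 without ENR +VE replicate 3. The linker histone gene H1f0 was read at 1634, 1614 and 1619.6 TPM in ENR +VE and 921, 931 and 915 TPM in ENR, so that its libraries stood apart, with a change of 0.81 ± 0.054 (SE) that was below 2-fold. RNA levels do not report the activity of these enzymes, and no histone mark was measured in these libraries.

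**Figure D2:**
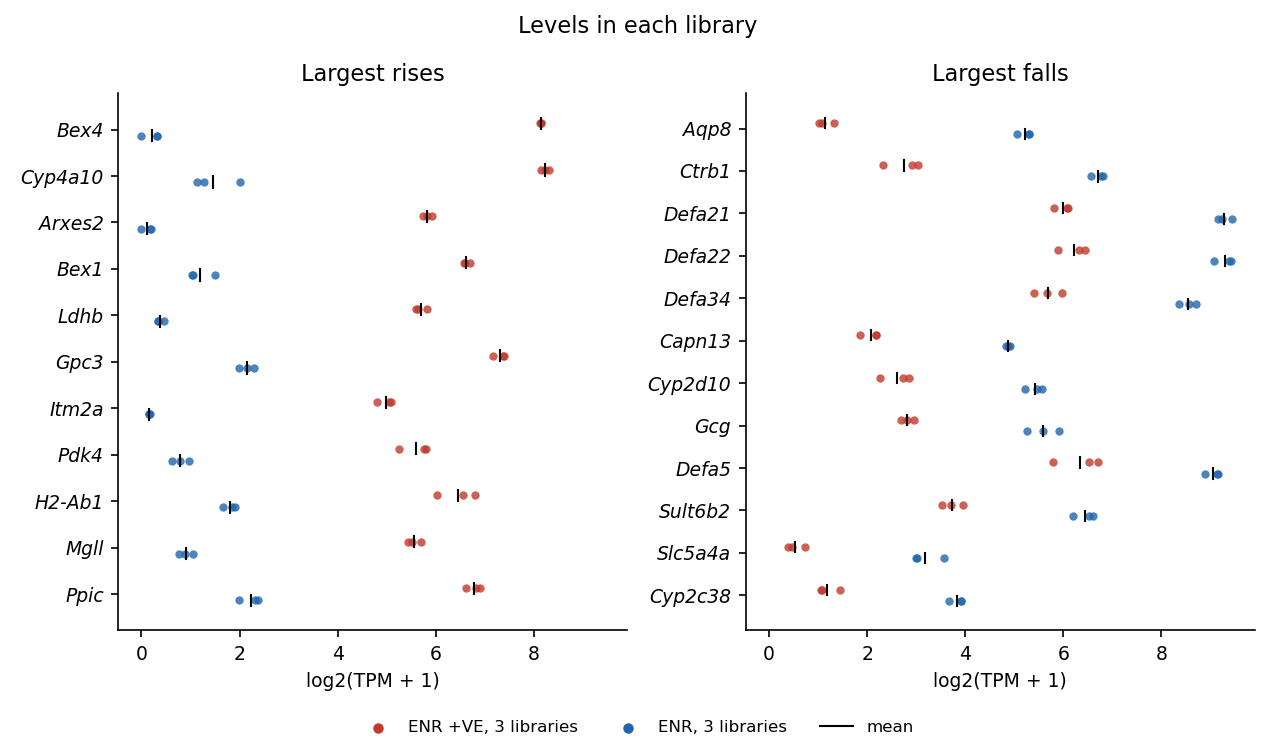
Level of 11 of the 12 genes with the largest rises (left) and of the 12 with the largest falls (right) in each library (x axis, log2(TPM + 1)), with ENR +VE in red, ENR in blue and the mean of each group as a black line. The libraries of the 2 groups do not overlap for any of these genes, which is part of how they were chosen.

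The largest rise of any named gene was that of Bex4, a small X-linked adaptor gene that lies in one cluster with other Bex, Tceal and Arxes genes (Bex4 at chrX:136138996-136140443, mm10). Bex4 was read at 282, 283 and 277 TPM in ENR +VE and at 0, 0.248 and 0.253 TPM in ENR, a change of 7.92 ± 0.12 (SE, limma adjusted p = 1.06e-07). Every treated library stood far above the controls, of which one listed the gene at 0. Bex1 (at chrX:136213972-136215513) was read at 94.9, 102 and 95.5 TPM against 1.83, 1.05 and 1.07 TPM, and Bex2 at 68.9, 67 and 74.9 TPM against 7.66, 6.43 and 7.49 TPM. Bex3, which was already expressed in ENR at 72.3, 57.7 and 65.2 TPM, reached 320.4, 315 and 356 TPM, a change of 2.33 ± 0.10 (SE). Arxes2, a copy of a signal peptidase subunit gene, went from 0.129, 0 and 0.138 TPM to 59.9, 55.5 and 52.3 TPM, and Tceal8, a gene related to the elongation factor TFIIS, from 0.463, 0.0809 and 0.165 TPM to 25.6, 17.4 and 19.6 TPM. Of 13 members of these X-linked families tested, 12 were called higher and none lower, beside 9.06% of all genes tested, and Gprasp1 was the exception at 0.092 ± 0.22 (SE). Their median change was 3.12, beside 0.011 over all genes. Of the 12, 6 had an ENR mean under 1 TPM and had to be higher to be tested, and the median includes them. The other 6 were called out of 7 tested with an ENR mean of 1 TPM or more. Arxes1 and Arxes2, and Bex1 and Bex4, are close copies, and the split of reads within each pair is uncertain.

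The promoters of 7 genes are shown because the compounds act on chromatin and these windows differ in how many CpG dinucleotides they hold. Lyz1, whose fall is smaller than the 12 largest, is shown for the Paneth genes, and the other 6 are among the largest rises or falls. Each line gives the 120 bases directly before the start of the gene, 5′ to 3′ on the strand of the gene, from RefSeq (GRCm38.p6), with each CpG in capitals. The windows of the risen genes are those of Bex4 (chrX:136138876-136138995, plus strand), Arxes2 (chrX:135993700-135993819, plus strand), Ldhb (chr6:142507958-142508077, minus strand) and Gpc3 (chrX:52613975-52614094, minus strand). The windows of the fallen genes are those of Aqp8 (chr7:123462174-123462293, plus strand), Ctrb1 (chr8:111691011-111691130, minus strand) and Lyz1 (chr10:117292869-117292988, minus strand).
Bex4: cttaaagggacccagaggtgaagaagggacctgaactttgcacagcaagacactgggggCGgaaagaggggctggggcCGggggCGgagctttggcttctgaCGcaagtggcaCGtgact
Arxes2: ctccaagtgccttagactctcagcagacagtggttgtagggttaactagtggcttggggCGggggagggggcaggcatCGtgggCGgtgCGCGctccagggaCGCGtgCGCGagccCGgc
Ldhb: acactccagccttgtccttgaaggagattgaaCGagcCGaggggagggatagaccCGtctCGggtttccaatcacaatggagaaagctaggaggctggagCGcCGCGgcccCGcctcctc
Gpc3: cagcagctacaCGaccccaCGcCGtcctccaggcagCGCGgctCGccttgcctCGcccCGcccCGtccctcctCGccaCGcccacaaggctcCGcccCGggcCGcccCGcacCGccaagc
Aqp8: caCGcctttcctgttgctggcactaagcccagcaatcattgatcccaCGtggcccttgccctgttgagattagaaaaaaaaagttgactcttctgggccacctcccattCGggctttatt
Ctrb1: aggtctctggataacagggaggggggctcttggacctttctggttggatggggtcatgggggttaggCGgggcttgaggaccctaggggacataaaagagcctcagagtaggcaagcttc
Lyz1: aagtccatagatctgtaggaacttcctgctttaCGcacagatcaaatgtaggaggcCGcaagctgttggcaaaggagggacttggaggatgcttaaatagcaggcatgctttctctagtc

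These windows hold 5, 10, 8 and 16 CpGs for the risen genes and 3, 1 and 2 for the fallen genes, and they were chosen after their values were seen. Over the 300-base promoter windows (250 bases before the start and 50 after) of all genes tested with an entry in the table, 9807 of 12468, the median was 21 CpGs. The 868 called higher genes with an entry had a median of 19 CpGs, with 58.9% of the promoters rich in CpG (an observed over expected ratio of at least 0.6 and a GC fraction of at least 0.5), beside 68.7% of all genes tested. The 170 called lower genes had a median of 4 CpGs and 15.3% CpG-rich promoters. The share was 59.1% in risen genes with an ENR mean under 1 TPM and 58.7% in those at 1 TPM or more. By list, the 17 Paneth promoters had a median of 1 CpG, the 26 enterocyte promoters 4 and the 10 promoters of developmental transcription factors 25.5. The medians of the other lists with rises were below that of all genes: 11 for the X-linked Bex families, 13.5 for Hox, 17 for imprinted and 19 for neuronal genes. These numbers describe the genes, and no test was run on them. Within the X-linked families, the windows of Bex1 and Bex4 shared an identical run of 271 bases, those of Bex2 and Bex3 one of 162 bases, and those of Arxes1 and Arxes2 were identical over all 300 bases. The letters CACGTG, the same on both strands, stood in 7 of the 12 windows of tested members (58.3%), beside 7.24% of the first-listed windows of all genes, and the shared runs mean that the 12 are not independent.

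**Figure D3:**
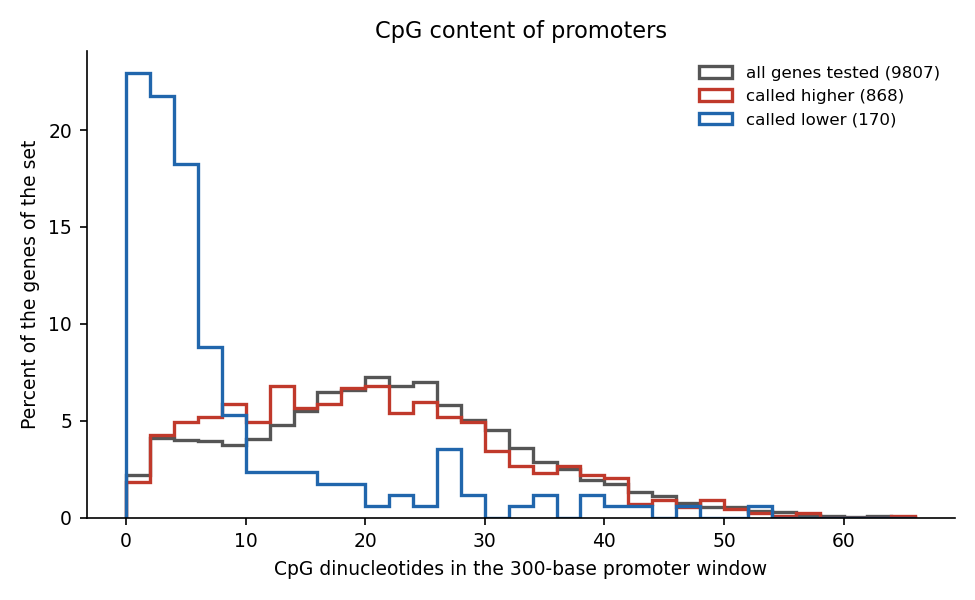
Number of CpG dinucleotides in the 300-base promoter window (x axis) as the percent of the genes of each set (y axis), for 9807 genes tested (grey), 868 called higher (red) and 170 called lower (blue). The blue line stands highest at the left, with a median of 4 CpGs, while the red and grey lines lie close together with medians of 19 and 21.

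Hox genes, which set position along the body axis and are classical polycomb targets, are given by gene. The table held 38 Hox genes, of which 28 did not reach the minimum level, 7 were called higher and 3 were tested without a call, beside 9.06% of all genes higher. Hoxb9 was read at 8.82, 6.12 and 3.27 TPM in ENR +VE and 0, 0 and 0.0821 TPM in ENR, and Hoxb8 at 8.92, 6.13 and 3.51 TPM and 0.075, 0.0787 and 0 TPM. Hoxa7 was read at 10.6, 18.7 and 4.79 TPM and 0.756, 0.865 and 0 TPM, and Hoxa5 at 6.73, 10.5 and 4.93 TPM and 0.421, 0.442 and 0.113 TPM. The treated libraries differed among themselves, with replicate 3 the lowest for each of these 4 genes, and all of them stood above the controls. All 7 called Hox genes had an ENR mean under 1 TPM and were tested only because the treated libraries were high, so that nothing is read from their number. The 3 others tested, Hoxa2, Hoxa3 and Hoxa4, had an ENR mean above 1 TPM and changes of 0.90, 0.66 and 0.56, and they did not pass the 2-fold minimum. Antisense transcripts lie in the Hox clusters, and the library kit does not mark strand, so their reads cannot be told apart from those of the genes.

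Other developmental transcription factors were less uniform, with 5 of 18 tested called higher (3 with an ENR mean under 1 TPM), none lower and a median of 0.81, beside 9.06% of all genes higher. The median includes 6 genes with an ENR mean under 1 TPM, which had to be higher to be tested. The count was 3 without ENR +VE replicate 1, and 7 without ENR +VE replicate 3 as without ENR replicate 2. Twist1, a factor of mesenchyme, was read at 7.28, 6.9 and 8.71 TPM against 0.121, 0.127 and 0 TPM, and Msx1, a homeobox target of BMP, at 7.46, 6.17 and 5.91 TPM against 1.09, 0.468 and 0.341 TPM. Foxc1 rose by 1.72 ± 0.15 (SE), while Tbx3 was read at 23.6 to 32.7 TPM in ENR +VE and 9.83 to 11.4 TPM in ENR. None of the 23 transcription factors of intestinal identity tested was called, and neither was any of the 10 epithelial identity markers, which include Epcam, Cdh1 and Cdx2. Against ENR replicates 4 to 7, however, 5 of the 23 factors were called higher and 1 of the 10 markers was called lower.

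Imprinted genes, expressed from a single parental copy and mostly high in fetal tissue, gave 12 of 22 tested members called higher and none lower, with a median of 1.01, beside 9.06% of all genes higher. Of these 12, 7 had an ENR mean under 1 TPM and had to be higher to be tested, and the median includes them. The other 5 were called out of 15 tested at 1 TPM or more. Peg12 was read at 10.5, 15.9 and 11.7 TPM in ENR +VE and 0, 0.157 and 0 TPM in ENR. Grb10, an adaptor that dampens insulin receptor signalling, was read at 16.2, 12.3 and 12.8 TPM against 0.544, 0.844 and 0.721 TPM. Sgce, a sarcoglycan, was read at 5.47, 5.18 and 4.78 TPM and was listed at 0 in all 3 ENR libraries, as was H19, a noncoding RNA read at 3.61, 3.44 and 2.01 TPM in ENR +VE. Cdkn1c, an inhibitor of cyclin-dependent kinases, was expressed in ENR at 12.7, 8.95 and 12.4 TPM and reached 32, 23.9 and 29.5 TPM, a change of 1.26 ± 0.17 (SE, limma adjusted p = 0.00083). Bex1, which the list of imprinted genes also holds, had the largest change in it. Imprinting itself was not measured.

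Among the inhibitors of cyclin-dependent kinases, 3 of 7 were called higher, beside 9.06% of all genes, and 1 of the 3, Cdkn2a, had an ENR mean under 1 TPM and had to be higher to be tested. Cdkn2a, the textbook polycomb target that encodes p16 and p19, was read at 9.43, 10.3 and 10.0 TPM in ENR +VE and 0.506, 0.531 and 0.721 TPM in ENR, a change of 2.78 ± 0.12 (SE, limma adjusted p = 4.46e-06). Its neighbour Cdkn2b moved the other way, from 156, 159.8 and 166 TPM to 94.8, 103 and 111 TPM, with a change of −0.64 that was below 2-fold here and 0.28 against ENR replicates 4 to 7. Cdkn1a, the p53 target that encodes p21, was read at 399, 414 and 429 TPM against 288, 290.4 and 302 TPM, a change of 0.50 ± 0.061 (SE). None of 30 DNA replication genes and none of 25 mitosis genes was called. Their medians were −0.075 and −0.041, beside 0.011 over all genes, and their changes ran from −0.48 to 0.43 and from −0.37 to 0.31.

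Neuronal genes gave 13 of 36 tested members called higher and none lower, with a median of 0.80, beside 9.06% of all genes higher. Of the 13, 10 had an ENR mean under 1 TPM, a level at which 523 of all 688 genes tested were called higher, and 3 were called out of 24 tested at 1 TPM or more. The median includes 12 genes with an ENR mean under 1 TPM, which had to be higher to be tested. Under quantile normalization 7 neuronal genes were called higher. Nefm, a neurofilament subunit, was read at 14, 15.8 and 13 TPM against 3.11, 2.87 and 3.99 TPM, and Nefl, another subunit, at 5.61, 6.41 and 5.05 TPM against 0.409, 0.368 and 0.50 TPM. Markers of other cell types were near the floor in both groups: of 15 stromal markers 2 reached a mean of 1 TPM and neither was called, and of 18 immune markers 2 did and neither was called. The summed stromal list was 20.67 to 22.26 TPM in ENR +VE against 11.79 to 15.36 TPM in ENR, most of it Vim, while Col3a1, Dcn, Lum and Thy1 were listed at 0 in all 6 libraries. The summed immune list was 4.10 to 4.70 TPM against 4.83 to 6.93 TPM, with Cd3e, Cd4 and Itgax at 0. Of the 11 endothelial and glial markers, Ret was the single member tested and was called higher at 6.98, 7.19 and 5.5 TPM against 1.84, 1.78 and 2.09 TPM, while Cdh5, Kdr, Emcn and Sox10 were at 0. The summed level of this list was 6.81 to 8.71 TPM against 2.96 to 3.83 TPM.

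Genes of fatty acid oxidation were also among the rises. Cyp4a10, a fatty acid hydroxylase and a standard target of the nuclear receptor PPARα, was read at 284, 315 and 299 TPM in ENR +VE and 1.41, 1.18 and 3.01 TPM in ENR, a change of 6.76 ± 0.22 (SE, limma adjusted p = 1.79e-06). Pdk4, the kinase that switches off pyruvate dehydrogenase, was read at 54.5, 53 and 37.2 TPM against 0.732, 0.531 and 0.963 TPM. Cyp4a10 stood outside the list of these genes. Of 26 genes tested in the list of fatty acid oxidation and ketone genes, 9 were called higher and none lower, with a median of 0.52, beside 9.06% of all genes higher, and 8 of these 9 had an ENR mean of 1 TPM or more. Beside Pdk4, the 9 included mitochondrial enzymes of the oxidation spiral (Acadl 1.04 ± 0.058, Hadhb 1.12 ± 0.066, SE), acyl-CoA thioesterases (Acot1 1.93 ± 0.071, Acot2 2.04 ± 0.079, SE), the peroxisomal thiolase Acaa1b (1.75 ± 0.10, SE), the lipid droplet coat Plin2 (1.34 ± 0.076, SE) and the lipase inhibitor Angptl4 (2.53 ± 0.10, SE). Acot1 was read at 397, 391 and 413 TPM against 108, 97 and 109 TPM, and Acadl at 579, 569 and 587 TPM against 275, 278 and 289 TPM, while Acadm, Acads and Acadvl, other dehydrogenases of the spiral, were not called. The receptors themselves did not pass the 2-fold minimum, with changes of −0.36 for Ppara, −0.40 for Ppard and 0.12 for Pparg, although Ppara was 0.75 against ENR replicates 4 to 7. Cpt1a, which admits fatty acids to mitochondria, changed by 0.84 ± 0.16 (SE). Mgll, a lipase that cleaves monoacylglycerol, was among the 12 largest rises at 51, 44.8 and 42.3 TPM against 0.701, 0.857 and 1.08 TPM. All 9 called genes of the list were also called against ENR replicates 4 to 7.

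Of 21 genes of glycolysis and lactate handling tested, 2 were called, both higher, a share near the 9.06% of all genes. Ldhb, the lactate dehydrogenase subunit of oxidative tissues, was read at 55.8, 48.9 and 47.6 TPM against 0.378, 0.264 and 0.269 TPM, a change of 5.31 ± 0.12 (SE), with an ENR mean under 1 TPM, and Hk1, a hexokinase, at 76.1, 80.4 and 62 TPM against 16.8, 21.4 and 19.9 TPM. Of 30 cholesterol and fatty acid synthesis genes 26 had a negative change, with a median of −0.32, and 2 were called higher and 1 lower, beside 9.06% and 1.92% of all genes. Fasn, fatty acid synthase, fell by 1.00 on the log2 scale, and Me1, malic enzyme, rose by 1.64 ± 0.093 (SE). Fasn was read at 115, 127 and 73.6 TPM against 181, 244 and 198 TPM, and it was not called without ENR +VE replicate 3, without ENR replicate 2, under 75th percentile scaling, against all 7 ENR libraries or against ENR replicates 4 to 7.

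Paneth cells, which secrete antimicrobial peptides at the crypt base, gave falls against both sets of ENR libraries. Lyz1, lysozyme, was read at 626, 539.9 and 545 TPM in ENR +VE and 3500.5, 3258 and 3301 TPM in ENR, a change of −2.56 ± 0.077 (SE, limma adjusted p = 1.51e-06). Of 24 Paneth genes tested, 13 were called lower and none higher, beside 1.92% of all genes tested, with a median of −1.07. The defensin genes Defa21, Defa22, Defa34, Defa5 and Defa2 changed by −3.28, −3.07, −2.86, −2.72 and −2.63. Defa21 was read at 66.6, 55.1 and 67.4 TPM against 689, 569.7 and 598 TPM, while Defa24, the most abundant defensin of the list, was read at 2135, 1956 and 2101 TPM against 4588, 4093 and 4133 TPM. Defensin genes are near-identical copies of one another, so that the reads of one member may be those of another. Other Paneth genes were not called: Ang4, an antimicrobial ribonuclease, was read at 412, 351 and 377 TPM against 381, 336 and 389 TPM with overlapping libraries, Mmp7, the protease that activates defensins, changed by −0.56 ± 0.10 (SE), and Wnt3, the niche signal, by 0.20 ± 0.10 (SE). The summed level of the 13 called genes was 5038 to 5422 TPM in ENR +VE, 15320 to 16780 TPM in ENR replicates 1 to 3 and 16360 to 19570 TPM in ENR replicates 4 to 7. All 13 were also called lower against ENR replicates 4 to 7.

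Enteroendocrine genes moved in both directions. Of 29 tested, 9 were called higher and 2 lower, with a median of 0.74, beside 9.06% higher and 1.92% lower over all genes. Under quantile normalization 5 were called higher and 2 lower, and 1 was called lower without ENR +VE replicate 2 or without ENR replicate 2. Ghrl, the hormone ghrelin, was read at 312, 260.3 and 348 TPM in ENR +VE and 34.4, 23.2 and 40.8 TPM in ENR, a change of 3.21 ± 0.20 (SE). Sct, secretin, was read at 118, 107 and 126 TPM against 26.7, 21.2 and 18 TPM, and Neurog3, the factor that commits cells to the lineage, at 64.9, 56.1 and 61.5 TPM against 23.5, 24 and 28.3 TPM. Gcg, the precursor of GLP-1, was read at 5.42, 6.72 and 6.05 TPM against 47.1, 37.3 and 59.1 TPM and fell by 2.77 on the log2 scale, and Pyy fell by 1.01 at levels under 3 TPM. The granule protein Chga changed by 0.80 ± 0.086 and the hormone Gip by 0.83 ± 0.21 (SE), both below 2-fold. Against ENR replicates 4 to 7, 7 members were called higher and 1 lower, and 5 of the 11 genes called here were among them. Ghrl, Sct, Neurog3 and Gcg kept their direction there with changes of 2.22, 1.57, 2.02 and −3.65, whereas Sst, somatostatin, was 1.09 ± 0.17 (SE) here, with the call lost without ENR replicate 2, and 0.18 there.

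Goblet and tuft cell genes gave 3 calls together. Of 22 goblet genes 1 was called, Bcas1, with a change of −1.05, and of 16 tuft genes 2 were called, the taste transducin Gnat3 and the lineage factor Pou2f3, with changes of 1.71 and 1.11, beside 9.06% higher and 1.92% lower over all genes. Of 15 tuft genes tested at an ENR mean of 1 TPM or more 1 was called. Without ENR +VE replicate 1 no goblet gene and 1 tuft gene was called, and without ENR replicate 1 the tuft genes gave 1 call.

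Enterocyte genes were lower against ENR replicates 1 to 3 but not against the other ENR libraries. Of 29 tested, 10 were called lower and none higher, with a median of −0.48, beside 1.92% of all genes lower. Slc2a5, the fructose carrier, was read at 44.4, 48.6 and 42 TPM against 172, 202 and 211 TPM, and Sis, sucrase-isomaltase, at 406, 543 and 339 TPM against 848, 1329 and 1111 TPM. Fabp1 and Fabp2, the fatty acid binding proteins, had positive changes of 0.58 ± 0.070 and 0.54 ± 0.073 (SE) that were below 2-fold, and Alpi, the brush border phosphatase, was read at 653, 593 and 573 TPM against 633, 619 and 656 TPM with overlapping libraries, and changed by 0.80 against replicates 4 to 7. The summed level of the 10 called genes was 3907 to 4529 TPM in ENR +VE, 9000 to 10170 TPM in ENR replicates 1 to 3 and 2885 to 5039 TPM in ENR replicates 4 to 7. Against ENR replicates 4 to 7 none of the 10 was called lower, 7 had a positive change, and 4 of the 29 genes were called higher. Sis, for example, was read at 266 to 362 TPM in replicates 4 to 7, a range that overlaps the treated libraries, and changed by 0.43 there. Aqp8, a water channel with the largest fall of any named gene (1.12, 1.49 and 1.04 TPM against 38.5, 32.3 and 38.4 TPM, a change of −4.07 ± 0.13, SE), was read at 0.359 to 19.6 TPM in replicates 4 to 7 and was not called against them. Ctrb1, chymotrypsinogen, was read at 6.52, 7.18 and 3.98 TPM against 108, 94 and 111 TPM and at 8.39 to 204 TPM in replicates 4 to 7, against which it was called. What separates the 2 sets of ENR libraries is not given in the labels.

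**Figure D4:**
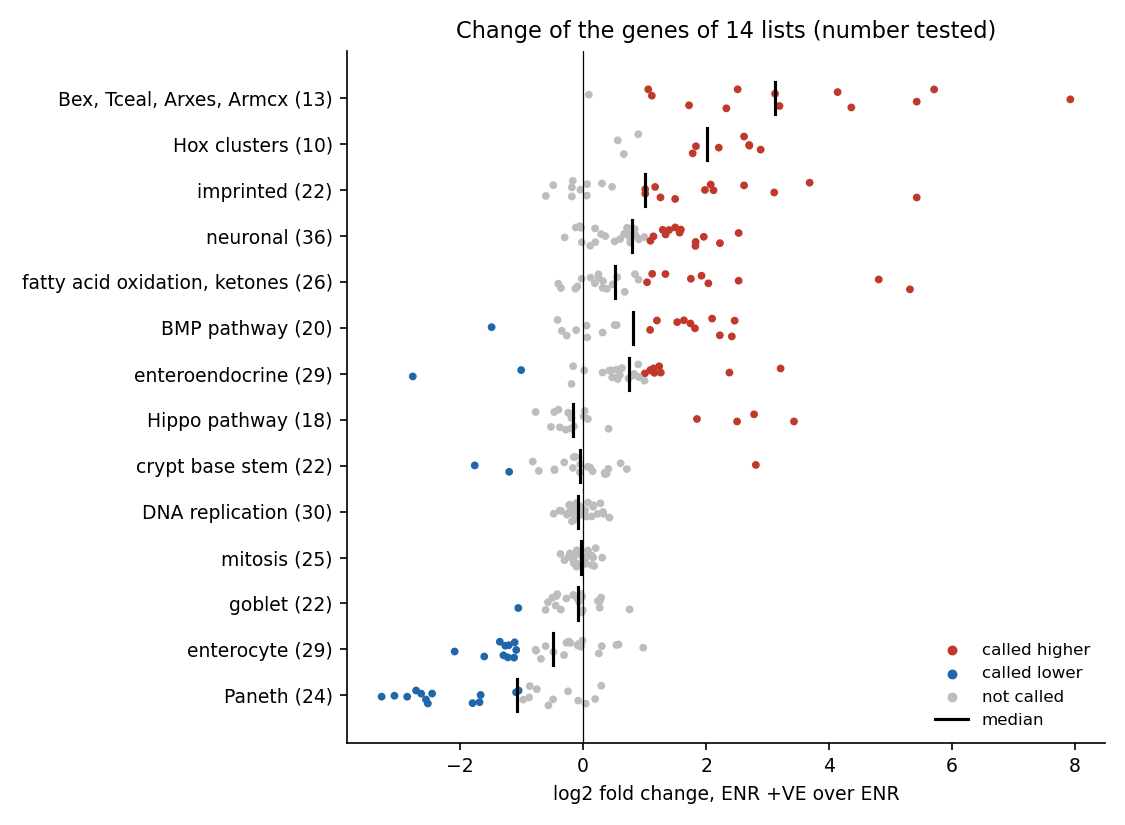
Log2 fold change of ENR +VE over ENR (x axis) for each gene tested in 14 lists, one row per list with the number of genes tested, called genes in red (higher) and blue (lower) and the median as a black bar. The X-linked Bex families have a median of 3.12 and the Paneth genes one of −1.07, and no gene of DNA replication or mitosis was called. The medians include members with an ENR mean under 1 TPM, which had to be higher to be tested.

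Of 22 markers of crypt base stem cells 1 was called higher and 2 lower, with a median of −0.049, beside 9.06% higher and 1.92% lower over all genes. The 1 rise, Tnfrsf19, had an ENR mean under 1 TPM and had to be higher to be tested. Lgr5, the R-Spondin receptor that marks these cells, was read at 52.7, 52.8 and 37.5 TPM in ENR +VE and 43.2, 43.3 and 43.5 TPM in ENR, a change of 0.12 ± 0.14 (SE, limma adjusted p = 0.525). Ascl2, a transcription factor of stem cells, was read at 82.1, 78.6 and 79.3 TPM against 52.6, 52 and 51.6 TPM, a change of 0.61 ± 0.068 (SE) that was below 2-fold. Olfm4, a secreted stem cell glycoprotein that Notch signalling sustains, was read at 1260.2, 924 and 1099.5 TPM against 2599, 2444 and 2457 TPM and fell by 1.20 on the log2 scale. Gkn3 was read at 16.8, 17 and 22.3 TPM against 68.8, 58.1 and 69.9 TPM, and Tnfrsf19, a Wnt-induced receptor, at 13.2, 12.3 and 10.1 TPM against 1.21, 0.787 and 0.535 TPM.

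Among Wnt target and feedback genes, 5 of 16 were called higher and 1 lower, beside 9.06% and 1.92% of all genes. Of the 5, Sfrp1, Wnt5a and Tnfrsf19 had an ENR mean under 1 TPM and had to be higher to be tested, and of 13 genes tested at 1 TPM or more 2 were called higher. The direct target Axin2 was read at 101, 117 and 77.1 TPM against 98.9, 104 and 97.1 TPM, with overlapping libraries. Sfrp1, a secreted inhibitor, was read at 15.7, 16.5 and 8.98 TPM and was listed at 0 in all 3 ENR libraries. Wnt5a, the noncanonical ligand, was read at 6.61, 7.43 and 4.54 TPM against 0.0758, 0 and 0 TPM, Apcdd1, a membrane inhibitor, at 20.7, 19.8 and 18.1 TPM against 2.05, 2.37 and 2.27 TPM, and Nkd1, a feedback inhibitor, changed by 1.56 ± 0.13 (SE). The receptor Tnfrsf19 is the remaining rise. Sfrp5, another secreted inhibitor, changed by −1.04, and was read at 8.09 to 21.5 TPM in ENR +VE, 22.7 to 40.4 TPM in ENR and 4.48 to 55.2 TPM in replicates 4 to 7. It was not called under most alternatives, among them those without ENR +VE replicate 1 or 2, without ENR replicate 1 or 3, under quantile normalization and against ENR replicates 4 to 7.

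In the BMP pathway, which noggin in the medium holds down, 10 of 20 genes tested were called higher and 1 lower, beside 9.06% and 1.92% of all genes. Of the 10, 4 had an ENR mean under 1 TPM and had to be higher to be tested, and 6 were called higher out of 15 at 1 TPM or more. Bmp4, a ligand of the villus mesenchyme, was read at 5.18, 4.73 and 3.75 TPM in ENR +VE and was listed at 0 in all 3 ENR libraries. The inhibitors of differentiation that BMP signalling induces were higher: Id1 was read at 141, 180.0 and 151 TPM against 58.3, 68.3 and 77.5 TPM, Id2 at 85.2, 91.5 and 85.1 TPM against 25.9, 26 and 30.2 TPM and Id3 at 89.9, 97.4 and 89 TPM against 19.4, 20.1 and 22.8 TPM, changes of 1.20, 1.64 and 2.10. Bambi, a decoy receptor, and Smad6, an inhibitory SMAD, changed by 1.53 ± 0.13 and 1.09 ± 0.22 (SE), and Bmp3, an antagonistic ligand, changed by −1.49. Smad6 was not called without ENR +VE replicate 2 or without ENR replicate 3. Id1, Id2 and Id3 were not called against ENR replicates 4 to 7, in which Id3 was read at 21.6 to 118 TPM and the change was 0.82. Of the 11 genes called here, all kept their direction against replicates 4 to 7 and 5 were called.

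In the Hippo pathway, which restrains the coactivators YAP and TAZ, 4 of 18 genes tested were called, all of them higher, and the median was −0.17, beside 9.06% of all genes higher. Tead4 and Amotl1 had an ENR mean under 1 TPM and had to be higher to be tested, and of 16 genes at 1 TPM or more 2 were called. Wwtr1, which encodes TAZ, was read at 24.6, 24.4 and 18.6 TPM in ENR +VE and 4.18, 1.86 and 3.72 TPM in ENR, a change of 2.50 ± 0.23 (SE). Its partners Tead2 and Tead4 were read at 52.3, 50.4 and 52.7 TPM against 7.39, 5.8 and 6.93 TPM and at 5.82, 7.28 and 4.63 TPM against 1.21, 0.576 and 0.94 TPM, and Amotl1, an angiomotin that binds YAP, at 13.3, 13.6 and 6.82 TPM against 0.0393, 0.185 and 0.063 TPM. Yap1 was read at 45.1, 51.8 and 33.7 TPM against 45.4, 54.9 and 52.7 TPM with overlapping libraries, Tead1 and Tead3 changed by −0.15 ± 0.25 and 0.026 ± 0.12 (SE), and the kinase Lats1 changed by −0.77 ± 0.24 (SE, limma adjusted p = 0.0401). All 4 called genes were called against ENR replicates 4 to 7 too.

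Of 6 YAP target genes tested, 3 were called higher and none lower, beside 9.06% of all genes higher, and 1 of the 3, Anxa1, had an ENR mean under 1 TPM. Against ENR replicates 4 to 7 the list had 1 higher and 1 lower. Anxa6, an annexin, was read at 51.3, 51.6 and 48.5 TPM against 5.87, 6.93 and 7.86 TPM, Areg, the EGF family ligand amphiregulin, at 174, 178 and 216 TPM against 61.7, 52 and 60.0 TPM, and Anxa1, a marker of the repairing epithelium, at 4.54, 5.66 and 4.49 TPM against 0.91, 0.636 and 0.648 TPM. Areg and Anxa1 were read at 72.2 to 355 TPM and 1.32 to 27.6 TPM in ENR replicates 4 to 7, ranges that span the treated libraries, and neither was called against them. Among 15 revival and fetal-like genes tested, 4 were called higher and none lower, beside 9.06% of all genes higher, and against ENR replicates 4 to 7 the list had 2 higher and 2 lower. Of the 4, 2 had an ENR mean under 1 TPM and had to be higher to be tested, and of 13 at 1 TPM or more 2 were called. Clu, clusterin, the marker of revival stem cells, was read at 14, 21.4 and 13.7 TPM against 2.19, 1.09 and 0.80 TPM, a change of 2.90 ± 0.25 (SE), and at 5.52 to 40.6 TPM in replicates 4 to 7, against which it was not called. Gja1, the gap junction protein connexin 43, was read at 12.1, 12 and 8.32 TPM against 0.0386, 0.0606 and 0.0618 TPM, and its change against replicates 4 to 7 was 3.45.

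Genes of the injury-associated regenerative signature, which the study compiled from models of intestinal injury, changed in both directions. Of 54 signature genes of the up list tested, 7 were called higher and 1 lower, with a median of 0.26. Of those tested at an ENR mean of 1 TPM or more, 5 of 50 were called higher. The share over all genes given below includes genes that had to be higher, so it is not a like measure for this count. Of 53 genes of the down list 3 were called higher and 6 lower, with a median of −0.33. The share over all genes tested was 9.06% higher and 1.92% lower. Under quantile normalization the up list had 5 higher and 4 lower, and without ENR +VE replicate 2 it had 6 higher and 3 lower. Against ENR replicates 4 to 7 the up list had 9 higher and 2 lower and the down list 5 higher and 1 lower. A score per library, the mean log2(TPM + 1) of the up list minus that of the down list, was −3.08, −3.06 and −3.17 in ENR +VE and −3.59, −3.66 and −3.70 in ENR replicates 1 to 3. In ENR replicates 4 to 7 it was −3.30, −3.38, −3.23 and −2.63. Replicates 4, 5 and 6 lay below every ENR +VE value and above replicates 1 to 3, and replicate 7 lay above every ENR +VE value. The range of replicates 4 to 7 thus spans the ENR +VE values only through replicate 7. It is given as a description without a test.

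Antimicrobial and immune genes of the epithelium included risen members. Reg3g, a lectin that kills Gram-positive bacteria, was read at 448, 505 and 495 TPM in ENR +VE and 27.7, 28.8 and 30.3 TPM in ENR, a change of 4.01 ± 0.076 (SE, limma adjusted p = 2.83e-07). Reg3b was read at 683, 751 and 769 TPM against 372, 284 and 346 TPM and Reg4 at 1091, 989 and 1155 TPM against 367, 330.3 and 324 TPM, while Reg3a changed by −0.47 ± 0.16 (SE) here and by 1.51 against ENR replicates 4 to 7. The Reg3 genes are close copies. H2-Ab1, the beta chain of an MHC class II molecule, was read at 92.5, 64.4 and 110.1 TPM against 2.78, 2.15 and 2.58 TPM, a change of 4.65 ± 0.20 (SE). Other class II genes differed in direction: H2-DMa was read at 13.1, 17 and 18.3 TPM against 3.61, 3.54 and 4.25 TPM, the cathepsin Ctss changed by −2.08, H2-Eb1 changed by −0.23 ± 0.34 (SE), and H2-Aa, Cd74 and the activator Ciita did not reach a mean of 1 TPM. Among 23 MHC class I genes 4 were called higher and none lower, with H2-Q7 at 46.8, 44.3 and 53.9 TPM against 11.5, 8.02 and 9.52 TPM, and among 22 interferon-stimulated genes 3 were called higher and none lower, with Bst2, a tether of viral particles, at 149.8, 142 and 171 TPM against 27.1, 23.9 and 22.9 TPM. The share over all genes was 9.06% higher.

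Matrix and adhesion genes gave 6 of 21 called higher (1 with an ENR mean under 1 TPM) and none lower, beside 9.06% of all genes higher, and 3 were called higher against ENR replicates 4 to 7. Nid1, a basement membrane glycoprotein, was read at 23.6, 20.9 and 14.6 TPM against 0.57, 0.478 and 0.457 TPM, and Itgb5, an integrin subunit, at 41.2, 42.7 and 39.5 TPM against 12.3, 14.4 and 13.5 TPM. Gpc3, a cell surface proteoglycan of fetal tissues, was among the largest rises at 164, 166 and 142 TPM against 3.9, 3.47 and 2.99 TPM, as was Ppic, a cyclophilin, at 112, 96.9 and 119 TPM against 4.0, 4.19 and 2.96 TPM. Itm2a, a membrane protein, was read at 32.3, 26.9 and 33 TPM against 0.113, 0.119 and 0.121 TPM. The remaining falls of the largest 12 were the protease Capn13 (−2.81 ± 0.13, SE), the cytochromes Cyp2d10 (−2.80 ± 0.18, SE) and Cyp2c38 (−2.65 ± 0.15, SE), Sult6b2 (−2.71 ± 0.15, SE) and the sugar carrier Slc5a4a (−2.66 ± 0.19, SE). Of these 5, Capn13 was called against ENR replicates 4 to 7 as well.

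Several of the remaining lists are given by their counts, beside 9.06% of all genes higher and 1.92% lower. Of 12 genes tested in the list of mucosal chemokines 2 were called lower and none higher, and none was called lower without ENR +VE replicate 3. Of 22 Notch pathway genes 4 were called higher, with Notch3 at 6.95, 6.98 and 4.14 TPM against 0.737, 1.93 and 1.29 TPM and the target Hes5 at 2.46, 3.18 and 3.02 TPM against 0.435, 0.76 and 0.62 TPM, and none lower, whereas 2 were called higher under quantile normalization and 2 against ENR replicates 4 to 7. Hes5 had an ENR mean under 1 TPM and had to be higher to be tested, and of 21 genes at 1 TPM or more 3 were called. Of 33 glutathione and NRF2 response genes 1 was called higher, Gpx8, a peroxidase of the endoplasmic reticulum, at 17.5, 16 and 15.1 TPM against 0, 0.198 and 0 TPM, which had to be higher to be tested, and none of the 32 others was called, while 27 had a negative change and the median was −0.32. This list had 2 lower without ENR +VE replicate 2, without ENR replicate 1 and under quantile normalization. Of 20 p53 targets 2 were called higher, the death receptor Fas (1.01 ± 0.12, SE) and Phlda3 (1.29 ± 0.15, SE), and Fas was not called without ENR +VE replicate 2 or 3, without ENR replicate 3 or under quantile normalization. Of 10 annexins 3 were called higher and 1 lower, with Anxa5 at 93.3, 81.2 and 83.4 TPM against 16.5, 14.9 and 17.5 TPM. Anxa1, another of the 3, had an ENR mean under 1 TPM and had to be higher to be tested, and of 9 at 1 TPM or more 2 were called higher. None of 17 FGF pathway genes and none of 25 partners of histone deacetylases and acetyltransferases was called. The FGF list had 1 higher without ENR +VE replicate 1 or 3, without ENR replicate 1 or 3, and against ENR replicates 4 to 7. The immediate early gene Nr4a1 and the claudin gene Cldn4, the single calls of their lists of 16 and 18 genes, changed by 1.20 ± 0.21 and 1.18 ± 0.084 (SE) here and by −0.97 and −0.51 against ENR replicates 4 to 7.

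The same pair of compounds was compared with its omission in 8C medium, which holds LDN193189, GSK-3 inhibitor XV, Pexmetinib, EGF, bFGF and R-Spondin 1 conditioned medium beside VPA and EPZ6438 (8C, 3 libraries, against 8C -VE, 3 libraries, replicates 1 to 3). The comparisons share no library. In 8C medium 1250 of 12517 genes tested (9.99%) were higher with VPA and EPZ6438 and 300 (2.4%) were lower. Of the genes higher in ENR 856 were also higher in 8C, which is 75.8% of the ENR list and 68.5% of the 8C list. The ENR list includes 523 genes with an ENR mean under 1 TPM, which had to be higher to be tested. Genes near 0 TPM in the controls of both media entered the fit of 4 groups only through treated libraries. The overlap was not split by level in the controls, so part of it may come from the filter. Of the genes lower in ENR 127 were also lower in 8C, 53.1% of the ENR list and 42.3% of the 8C list. No gene was higher in ENR and lower in 8C, and 2 genes were lower in ENR and higher in 8C. Across 12323 genes tested in both, the changes had a Pearson r of 0.844, a description in which genes are not independent replicates.

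Values in 8C medium are set beside those in ENR for the groups described above. Bex4 was read at 526, 607 and 513 TPM in 8C and 0.223, 1.05 and 0 TPM in 8C -VE, a change of 8.66 ± 0.22 (SE), and 13 of the 15 X-linked genes tested in 8C were called higher and none lower, beside 9.99% of all genes higher there. Members near 0 TPM in the controls of both media, such as Bex4, were tested only through the treated libraries. Of 24 Paneth genes 15 were lower in 8C, with a median of −1.49, and 1 was higher, beside 2.4% of all genes lower in 8C. Lyz1 changed by −2.56 ± 0.077 (SE) in ENR and by −2.34 ± 0.12 (SE) in 8C. Cdkn2a, Twist1, Wwtr1 and Tead2 changed by 4.11, 4.58, 2.05 and 3.06 in 8C.

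The difference of the change in ENR from the change in 8C was tested directly as an interaction term, and 352 genes (2.81%) were called, 157 more positive in ENR and 195 more negative, with 1848 at an unadjusted p under 0.05. Cyp4a10 had the largest positive term among named genes, at 4.79 ± 0.71 (SE, limma adjusted p = 0.00303), and was read at 3.74, 1.51 and 13.2 TPM in 8C against 0.0886, 0.938 and 0.323 TPM in 8C -VE. Pdk4, Acot2 and Angptl4, of the list of fatty acid oxidation genes, had terms of 2.79, 1.72 and 1.82. Olfm4 fell in both media, but its level in 8C was 39.7, 22.5 and 41.1 TPM against 1629, 1674 and 1713 TPM in 8C -VE, so that the term was 4.41 ± 0.27 (SE, limma adjusted p = 9.48e-06). Id1 and Id2 had terms of 1.47 and 1.38, Areg, Anxa1 and Anxa5 of 2.30, 1.55 and 1.85, and Hoxb7, Hoxb8 and Hoxb9 of 1.62, 2.11 and 2.05. Hoxb8 was read at 0.616, 1.12 and 0 TPM in 8C and was listed at 0 in all 3 8C -VE libraries. Myl7, a myosin light chain, and Akp3, an intestinal alkaline phosphatase, had terms of 3.65 and 2.87, and Akp3 was not called in ENR itself.

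Among the negative terms, Reg3b was read at 664, 633 and 575 TPM in 8C and 5.24, 9.05 and 4.17 TPM in 8C -VE, so that its controls lay far below the ENR controls, and its term was −5.36 ± 0.28 (SE, limma adjusted p = 5.33e-06). Cym, a gastric protease, was read at 21.8, 60.3 and 89.4 TPM in 8C and stayed under 2 TPM in both ENR groups, with a term of −6.10. Igfbp1, Ifitm1 and Wfdc10 had terms of −4.53, −4.39 and −4.27 and also stayed under 2 TPM in ENR and ENR +VE. Aqp8, which fell in ENR, was under 1 TPM in all 8C and 8C -VE libraries, where a fall could not be measured, and its term was −4.09. Gkn3 fell in ENR and was read at 339, 381 and 347 TPM in 8C against 172, 151 and 183 TPM in 8C -VE, a term of −2.84. The media differ in several components and the dose in ENR is not stated, so that these cannot be told apart as sources of a difference.

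With all replicates of the 4 groups in the fit, 73 genes rather than 352 were called. Of the 22 differences between media named here, 4 were still called (Cyp4a10, Olfm4, Acot2 and Angptl4), 16 kept their direction without being called, and 2, Areg and Anxa1, changed sign.

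**Figure D5:**
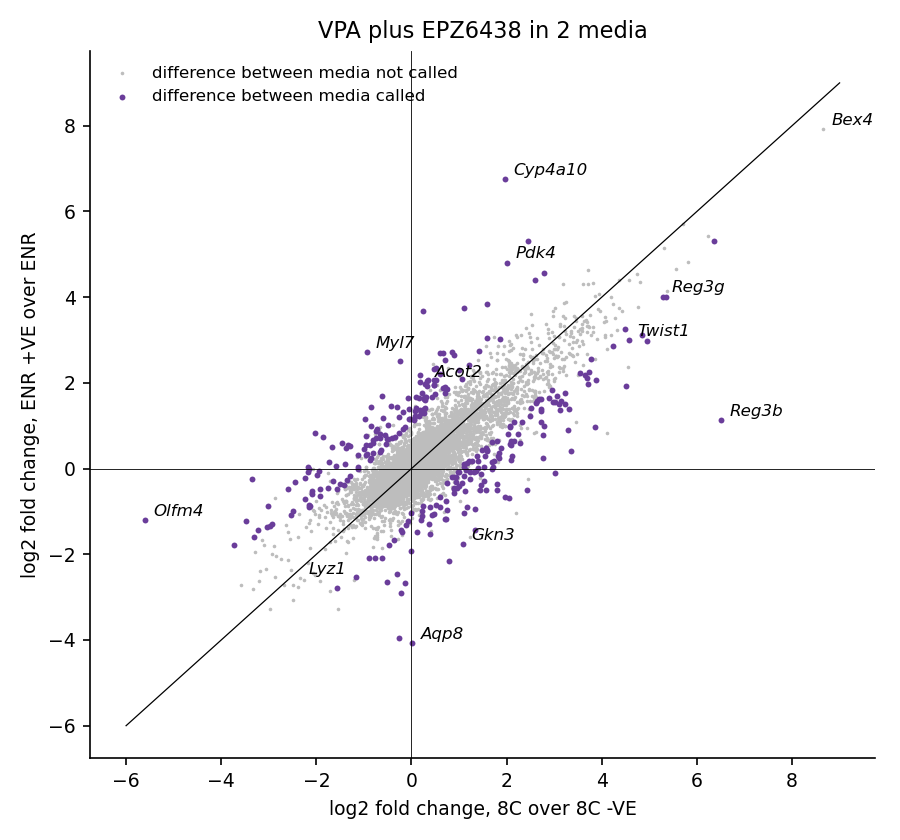
Log2 fold change of VPA plus EPZ6438 in ENR medium (y axis, ENR +VE over ENR) against that in 8C medium (x axis, 8C over 8C -VE), 3 libraries in each group, with genes whose difference between media was called in purple and the line of equal change in black. Bex4 lies near the line in both, Cyp4a10 far above it and Reg3b far below it.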

How the data were processed

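The measured quantity was RNA in bulk organoids. The libraries were made with a NEBNext Ultra RNA kit and sequenced as read pairs on an Illumina instrument. The authors deposited one table of TPM values (transcripts scaled to a fixed total) for 29579 genes, and the submitters' notes name Trimmomatic 0.39, STAR 2.7.3a, featureCounts and the mouse build mm10. The strand setting and the treatment of reads that match several genes are not given in the sources used here. TPM keeps no read numbers, so that counting error could not be separated from other spread, and no count model was run.

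Here log2(TPM + 1) was fitted with limma 3.58.1 in R 4.3.3 over the genes that averaged 1 TPM or more in the libraries compared, with a trended and robust prior. P-values were adjusted by the Benjamini-Hochberg method over all genes tested, and a call needed an adjusted p below 0.05 together with a 2-fold change or more. Groups came from the labels, and replicates 1 to 3 of each group entered the fit without a block. The scripts were tested on simulated data. Alternatives were another pseudocount, scaling, minimum level, prior, replicate block and control set, and each library left out. Removing mitochondrial genes or the trend with transcript length was chosen after seeing the data.

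The genes named are the 12 largest rises and falls among called genes without overlap (predicted genes, clone and Rik names left out), up to 6 called members of each gene list in each direction, members whose role is described, the targets of the compounds, and the 6 largest differences between media in each direction. Further genes with differences between media were chosen after their values were seen. The comparison and the gene lists were chosen with earlier results of these data known. Some genes that these rules name are not reported here, although counts, medians and sums over lists include them.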

Additional observations from a re-analysis of the deposited data

Results flagged for a closer look

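Genes whose change with VPA and EPZ6438 differed between ENR and 8C medium by the interaction term are given here as values (log2, change in ENR minus change in 8C, 3 libraries in each of 4 groups, limma with Benjamini-Hochberg adjustment). More positive in ENR were Cyp4a10 at 4.79, Olfm4 at 4.41, Myl7 at 3.65, Akp3 at 2.87, Pdk4 at 2.79, Areg at 2.30, Hoxb8 at 2.11, Hoxb9 at 2.05, Anxa5 at 1.85, Angptl4 at 1.82, Acot2 at 1.72, Hoxb7 at 1.62, Anxa1 at 1.55, Id1 at 1.47 and Id2 at 1.38. More negative in ENR were Cym at −6.10, Reg3b at −5.36, Igfbp1 at −4.53, Ifitm1 at −4.39, Wfdc10 at −4.27, Aqp8 at −4.09 and Gkn3 at −2.84. With all replicates of the 4 groups in the fit, Cyp4a10, Olfm4, Acot2 and Angptl4 were still called, Areg (−0.19) and Anxa1 (−0.46) changed sign and the other 16 kept their direction without a call. Aqp8 was under 1 TPM in all 8C and 8C -VE libraries, where a fall could not be measured.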

How the results depend on the processing

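The counts of called genes stayed within 1.5 times of the reported ones except as follows. With a minimum mean of 5 TPM, 719 genes were called (551 higher), and without a minimum fold 4299 (2842 higher, 1457 lower). The number lower was 466 under quantile normalization, 91 with all 7 ENR libraries as control and 112 with ENR replicates 4 to 7 as control. Leaving out each library in turn gave 1275 to 1469 genes, 1042 to 1185 higher and 204 to 317 lower. In 8C medium 853 genes (616 higher) were called at a minimum of 5 TPM, 4005 (2575 higher, 1430 lower) without a minimum fold and 495 lower under quantile normalization, and leaving out each library gave 1492 to 1631, 1156 to 1375 higher and 256 to 434 lower. For the difference between media, 210 genes (100 more negative) were called at a minimum of 5 TPM, 582 (299 more positive) without a minimum fold and 73 (40 more positive, 33 more negative) with all replicates, and leaving out each library gave 277 to 495, 119 to 195 more positive and 149 to 312 more negative, the last without 8C replicate 2.

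With the replicate block, 1380 genes were called in ENR (1132 higher, 248 lower), and all 159 called genes followed singly stayed called. For each gene the group mean of log2(TPM + 1) was subtracted, and what remained was correlated between the groups over the genes tested. The same-numbered libraries correlated at −0.242, 0.636 and 0.205 in this measure. ENR +VE replicates 1 and 3 correlated best with another number, whereas transcripts that differ by sex went with the number in both groups. The labels do not say what a number stands for. Leaving out 1 library ended the calls of Bcas1, Defa24, Epop, Fas, Fasn, Phc1, Pou2f3, Pyy, Sfrp5, Smad6 and Sst, and of the differences between media of Akp3, Hoxb7 and Hoxb9.

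Of those 159 genes, 106 were still called against ENR replicates 4 to 7, 43 kept their direction only, 1 was not tested there and 9 reversed: Anxa1 (−0.19), Bco2 (0.14), Cldn4 (−0.51), Cyp3a11 (1.26), Mme (0.85), Nr4a1 (−0.97), Sis (0.43), Slc15a1 (0.72) and Treh (0.25). With all 7 ENR libraries, Cyp3a11 (0.16) and Nr4a1 (−0.043) reversed. Of genes named without a call, those that changed sign against ENR replicates 4 to 7 were Alpi (0.80), Ang4 (−0.46), Cdkn2b (0.28), Epcam (−0.14), Gip (−0.018), H2-Eb1 (0.28), Hoxa4 (−0.10), Ppara (0.75), Reg3a (1.51), Suz12 (0.16), Tead1 (0.29) and Vil1 (0.42). With all 7 ENR libraries they were Alpi (0.43), Ang4 (−0.24), Epcam (−0.042), H2-Eb1 (0.060), Ppara (0.28), Reg3a (0.66), Tead1 (0.10) and Vil1 (0.20), with the length trend removed Ang4 (−0.10), Epcam (−0.070), Ezh2 (−0.11), Pparg (−0.033) and Tead3 (−0.087), and under quantile normalization Ang4 (−0.0027) and Gprasp1 (−0.25). Leaving out each library, changes that crossed 0 ranged from −0.022 to 0.10 (Ang4), −0.18 to 0.12 (Axin2), −0.060 to 0.29 (Gprasp1), −0.65 to 0.080 (H2-Eb1), −0.29 to 0.10 (Tead1), −0.038 to 0.11 (Tead3) and −0.12 to 0.13 (Aqp8 in 8C medium). In 8C medium the uncalled change of Aqp8 was −0.18 under quantile normalization, −0.12 without 8C replicate 2 and −0.047 without 8C -VE replicate 1 or 3. With all replicates the changes in 8C medium were −0.15 for Aqp8, 0.31 for Myl7, 1.22 for Areg, −0.99 for Gkn3 and 0.12 for Id1, and the differences between media −0.46 for Anxa1 and −0.19 for Areg. The cause was not tested.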

Other observations

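Transcripts of the X and Y chromosomes that differ by sex went with the replicate number. In replicate 1 Xist and the Y-linked genes Ddx3y and Eif2s3y were present in both groups, in replicate 2 the Y-linked genes were at 0 in both groups, and in replicate 3 Xist was at 0.0688 TPM in ENR +VE and 0.118 TPM in ENR while the Y-linked genes were present. Replicate 2 thus had the transcripts of female material and replicate 3 those of male material in both groups, so replicates 2 and 3 did not come from the same mice. The labels give no mice for these libraries.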
